A study of Mus musculus with 4 samples.

Results

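Matrix metalloproteinases (MMPs) and their tissue inhibitors (TIMPs) were followed in total RNA sequencing libraries of MEFs, fibroblasts of the connective tissue taken from mouse embryos into culture. The members were the gene entries of the deposited count table for 10 symbols, out of 47937 genes in that table. They were the 7 proteinase genes Mmp2, Mmp3, Mmp9, Mmp10, Mmp11, Mmp13 and Mmp14 and the 3 inhibitor genes Timp1, Timp2 and Timp3, and each symbol matched 1 entry. The study compared 2 libraries of untreated wild-type MEFs with 2 libraries of MEFs exposed to 50 µM genistein, a plant isoflavone, for 24 h. All 4 libraries came from a line labelled only as MEF, grown in high glucose medium with serum. The labels do not say whether the libraries of a group came from separate cultures, so the tests below measure the spread between libraries, which may be technical. They also do not say whether the untreated cells received the solvent.

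MMPs are zinc-dependent endopeptidases that cut collagens and other matrix proteins outside the cell. They are made as inactive proenzymes, and a propeptide has to be removed before the zinc site is free. TIMPs are small secreted proteins that block the zinc site, and TIMP-2 also takes part in the activation of pro-MMP-2 by the membrane-anchored enzyme MMP-14. Fibroblasts are a main source of both in connective tissue. All values are RNA levels of whole cultures. They say nothing of secreted, activated or inhibited protein, and fewer cells that express a gene cannot be told apart from less RNA per cell.

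Mmp3, Mmp10 and Mmp13 lie in a cluster of MMP genes on chromosome 9, and their promoters share a motif that the promoters of the other members searched did not hold. RefSeq promoter windows of 300 bases (GRCm38.p6, ending 50 bases after the start site) were found for 8 of the 10 members, all but Mmp2 and Mmp9. The motif TGANTCA, a recognition sequence of the AP-1 transcription factors, was searched on both strands. It was present in 3 of the 8 windows and in 7.81% of all 32851 windows of that table. Only exact matches were counted, so a variant AP-1 site in any window would be missed. The 30 bases around each match are shown, with the match in capitals, because Mmp11, Mmp14 and the TIMPs held no exact match.
Mmp3, chr9:7445765-7445794, plus strand, match starting at position -46: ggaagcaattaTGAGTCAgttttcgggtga
Mmp10, chr9:7502268-7502297, plus strand, match starting at position -63: tagcacccatgTGAGTCAtgcttagtgacc
Mmp13, chr9:7272468-7272497, plus strand, match starting at position -35: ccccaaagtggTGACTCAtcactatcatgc
Position -1 is the last base before the start site. A second motif searched, AGGAAG on either strand (bound by ETS factors), was present in the windows of Mmp3, Mmp13, Mmp14, Timp1 and Timp3 and in 35.4% of all windows. A match is a description of these letters and is not shown to be a site in use.

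The coding sequences of the proteinases are alike around the zinc site, which raises the question of whether reads can be told apart. The first 30 bases of the stretch that codes for the zinc-binding motif are shown for Mmp3 and Mmp10, both in exon 5, with capitals where the 2 genes differ from each other.
Mmp3, chr9:7449775-7449804 (GRCm38, plus strand): catgaacttggccactccctgggActctAC
Mmp10, chr9:7504858-7504887 (GRCm38, plus strand): catgaacttggccactccctgggTctctTT
They differ at 3 of the 30 bases. Against Mmp3, the same stretch differs at 6 bases in Mmp13, 9 in Mmp11, 10 in Mmp2, 11 in Mmp14 and 12 in Mmp9. Over the whole transcripts the longest run of identical bases was 104 for Mmp3 and Mmp10 and 16 for Mmp3 and Mmp13, shorter than the reads of 150 bases. No window of 150 bases in a coding transcript of any of the 7 proteinases, of Timp1 or of Timp2 occurred in a transcript of another gene. The exception was Timp3, where 34.6% of such windows occurred, on the opposite strand, in transcripts of Syn3.

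Of the 10 members, 9 had enough reads to be tested. Mmp2, Mmp3, Mmp11, Mmp13, Mmp14 and Timp2 rose with genistein, Timp1 fell, and Mmp10 and Timp3 did not pass the test (adjusted p under 0.05, quasi-likelihood test of edgeR, Benjamini-Hochberg adjustment over all genes and repeats). That is 6 higher and 1 lower of 9, or 7 in all. Among all 16240 genes tested, 33.5% were called higher and 38.2% lower, 71.7% in all, so the share of members called was near the background. The median log2 fold change was 0.40 over the 9 members and -0.03 over all genes. The changes were moderate. None of the 9 passed all thresholds of the study (adjusted p under 0.05, absolute log2 fold change over 1 and mean normalised read count over 100), against 3.92% of genes higher and 4.16% lower, 8.08% in all. This count was 0 with edgeR and 0 with DESeq2, while 7 members had an unadjusted p under 0.05 with edgeR. The 2 libraries of each group did not overlap those of the other group for any of the 9, with genistein above for 7 and below for 2. Groups did not overlap for 85.3% of all genes, 40.7% with genistein above and 44.6% below. An exact two-sided permutation of 2 and 2 libraries gives at the least p = 0.333, and for that reason the p-values printed here come from the model.

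**Figure D1:**
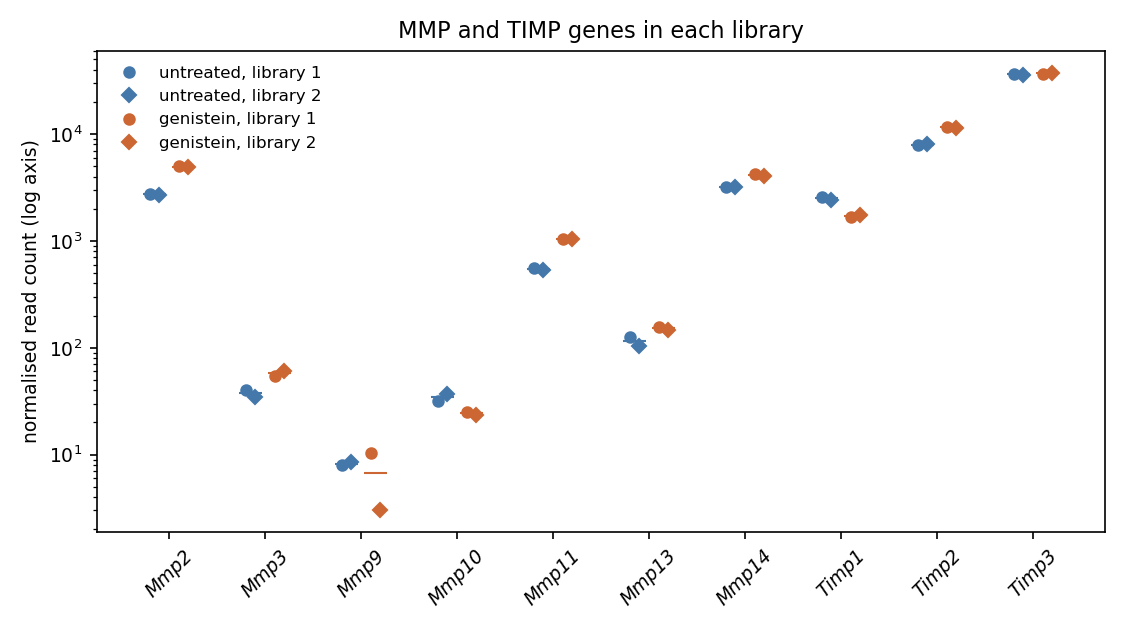
Normalised read counts (log axis) of the 10 genes in each of the 4 libraries, blue for untreated and orange for genistein, with circles and diamonds for libraries 1 and 2 and short lines for group means. Both genistein libraries lie above both untreated libraries for Mmp2 (5020 and 4877 against 2735 and 2711) and below them for Timp1, while the Mmp9 points of both groups overlap.

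Mmp2, which encodes gelatinase A, the main gelatin- and type IV collagen-cutting MMP of fibroblasts, had the second largest rise of the 6 members that rose. It lies on chromosome 8, 92827291 to 92853420 (GRCm38, plus strand). Its normalised read count, which is the count scaled to the mean effective library size, was 2735 and 2711 without genistein and 5020 and 4877 with it. The groups were far apart relative to the spread within them (2723 ± 16.8 and 4949 ± 102, SD, n = 2 each). The difference was 0.86 (standard error 0.03) as a log2 fold change, a 1.82-fold rise (adjusted p = 1.8e-12, edgeR). By absolute size this was rank 3583 of 16240 genes. It stayed between 0.84 and 0.93 under every alternative scaling, filter, tool, design and left-out library.

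Mmp14 encodes the membrane-anchored MT1-MMP, the activator of pro-MMP-2 (chromosome 14, 54431612 to 54445364, plus strand). It had 3228 and 3206 normalised reads in untreated cells and 4227 and 4059 in the genistein libraries. Both genistein libraries were higher, but the step was smaller than that of Mmp2. The difference was 0.37 (standard error 0.03) as a log2 fold change, or 1.29-fold (adjusted p = 8.8e-08, edgeR).

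Mmp9, the other gelatinase, which is best known from leukocytes and osteoclasts, was close to absent (chromosome 2, 164940780 to 164955850, plus strand). Its raw counts were 8 and 8 without genistein and 11 and 3 with it. The highest and the lowest count both came from genistein, and the gene fell below the filter on low counts. Without that filter its log2 fold change was -0.29 with a 95% interval from -1.36 to 0.78, so a change was not detectable at this depth.

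Mmp11 encodes stromelysin-3, an MMP known from stromal fibroblasts that is activated inside the cell by furin. It had the largest log2 fold change of the tested members (chromosome 10, 75923222 to 75936496, minus strand). Normalised reads were 559 and 530 without genistein and 1033 and 1037 with it. The genistein libraries differed by less than the untreated ones, with means of 545 ± 20.5 and 1035 ± 2.93 (SD, n = 2). The difference was 0.93 (standard error 0.06) as a log2 fold change, or 1.90-fold (adjusted p = 5.6e-10, edgeR), with a 95% interval from 0.80 to 1.05. It thus fell just short of the fold threshold of 1, which it also did not pass under any alternative, where it lay from 0.88 to 0.99. It shares 155 exonic bases, 5.58% of its exons, with Chchd10 on the opposite strand, and Chchd10 had 11 to 14 counts per library.

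The chromosome 9 genes with the AP-1 motif shown above had low counts, and Mmp13 and Mmp3 rose while Mmp10 had a negative value that did not pass. Mmp13, the main interstitial collagenase of mice (7272514 to 7283331, plus strand), had 126 and 104 normalised reads in untreated cells and 157 and 147 in the genistein libraries. It rose by 0.40 (standard error 0.13) on the log2 scale (adjusted p = 0.014, edgeR). Mmp3, stromelysin-1, which cuts proteoglycans and activates other pro-MMPs (7445822 to 7455975, plus strand), had 40.0 and 34.9 normalised reads in untreated cells and 54.4 and 60.7 in the genistein libraries. It rose by 0.61 (standard error 0.20) on the log2 scale (adjusted p = 0.013, edgeR). Mmp10, stromelysin-2, with a similar range of substrates to Mmp3 (7502352 to 7510240, plus strand), had 32.0 and 37.1 normalised reads in untreated cells against 25.3 and 23.3 in the genistein libraries. Both genistein libraries were lower, but its log2 fold change of -0.50 had a 95% interval from -1.04 to 0.04 and did not pass (adjusted p = 0.088, edgeR). The difference between Mmp3 and Mmp10, the pair with the most alike sequences shown above, was not tested.

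The calls of Mmp13 and Mmp3 depended on the processing. With DESeq2 the adjusted p was 0.13 for Mmp13 and 0.16 for Mmp3. Without the second untreated library they were 0.11 and 0.063. Without the first genistein library Mmp13 had an adjusted p of 0.077, and without the second genistein library Mmp3 had 0.098. The direction of both was kept in each of these fits. In the fits that left out 1 library, Mmp13 lay from 0.27 to 0.54 and Mmp3 from 0.52 to 0.71, so their size is imprecise.

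**Figure D2:**
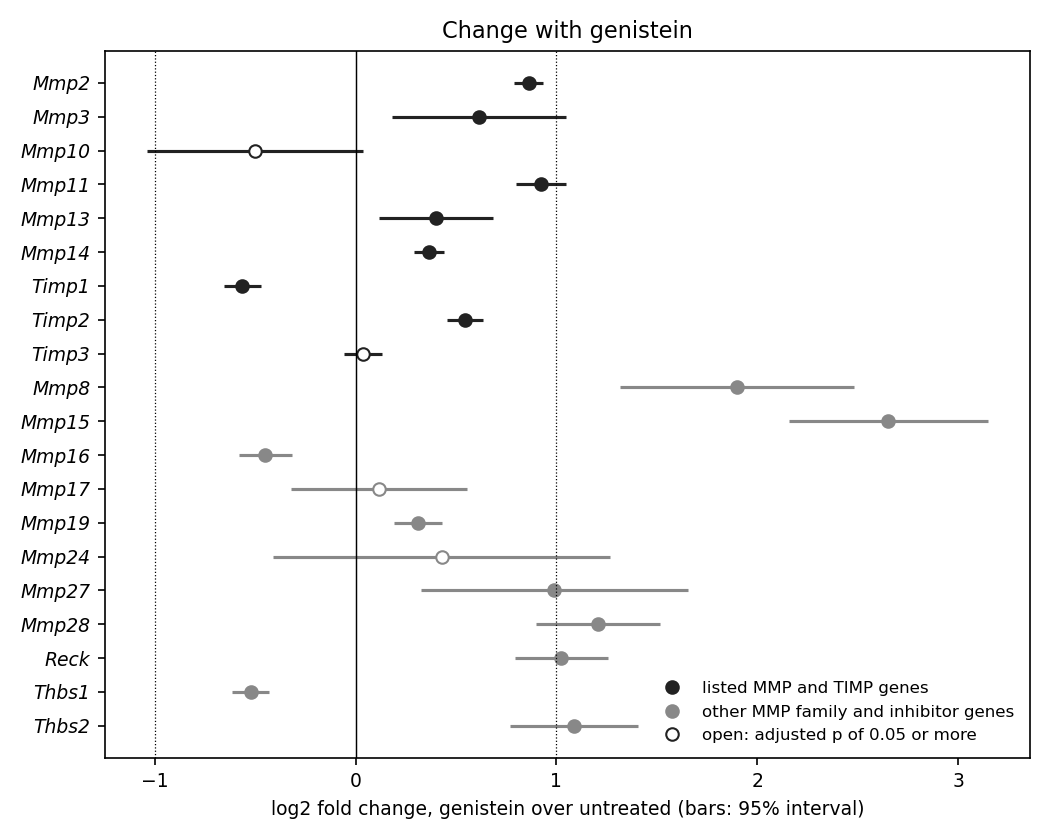
Log2 fold change with genistein for the 9 tested MMP and TIMP genes (black) and the 11 tested genes of the other MMP family and inhibitor lists (grey), with 95% intervals as bars and open circles for an adjusted p of 0.05 or more. The intervals of Mmp2, Mmp3, Mmp11, Mmp13, Mmp14 and Timp2 lie above 0. That of Timp1 lies below 0, while those of Mmp10 and Timp3 cross it. Dotted lines mark a log2 fold change of 1 and -1.

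The 3 inhibitors each did something different. Timp1, an inhibitor of most soluble MMPs and a gene induced by growth factors, fell (chromosome X, 20870166 to 20874735, plus strand). It had 2594 and 2438 normalised reads in untreated cells and 1665 and 1740 in the genistein libraries. The group means were 2516 ± 110 and 1703 ± 52.8 (SD, n = 2), and the untreated level was 1.48 times the genistein level. The difference was -0.56 (standard error 0.04) as a log2 fold change (adjusted p = 5.8e-09, edgeR). Timp1 lies within the bounds of Syn1 on the opposite strand without sharing exon bases, and Syn1 had at most 37 counts in a library.

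Timp2, which both inhibits MMPs and takes part in pro-MMP-2 activation, rose (chromosome 11, 118301069 to 118355740, minus strand). It had 7836 and 7998 normalised reads in untreated cells and 11610 and 11490 in the genistein libraries. Both genistein libraries were higher by far more than the spread within a group. The difference was 0.55 (standard error 0.04) as a log2 fold change, or 1.46-fold (adjusted p = 7e-09, edgeR). Cep295nl lies on the same strand within the bounds of Timp2, shares no exon bases with it, and had 264 and 267 counts without genistein and 635 and 522 with it. Whether unspliced Timp2 RNA is part of those Cep295nl counts was not tested.

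Timp3, the inhibitor that binds to the matrix and also blocks ADAM and ADAMTS proteinases, had the highest counts of the family (chromosome 10, 86300372 to 86349506, plus strand). Its normalised reads were 36590 and 36000 without genistein and 36820 and 37620 with it. The genistein libraries lay slightly above, and the nearest libraries of the 2 groups were closer to each other than the libraries within either group. The log2 fold change was 0.04 with a 95% interval from -0.06 to 0.13 (adjusted p = 0.47, edgeR), so the interval leaves room for a change of at most 0.13 in size at the depth of this gene. Syn3, which shares 21.3% of the exon bases of Timp3 on the opposite strand, had 22 to 43 counts per library, few beside the Timp3 counts. The counting option for strand is not given in the sources used here.

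**Figure D3:**
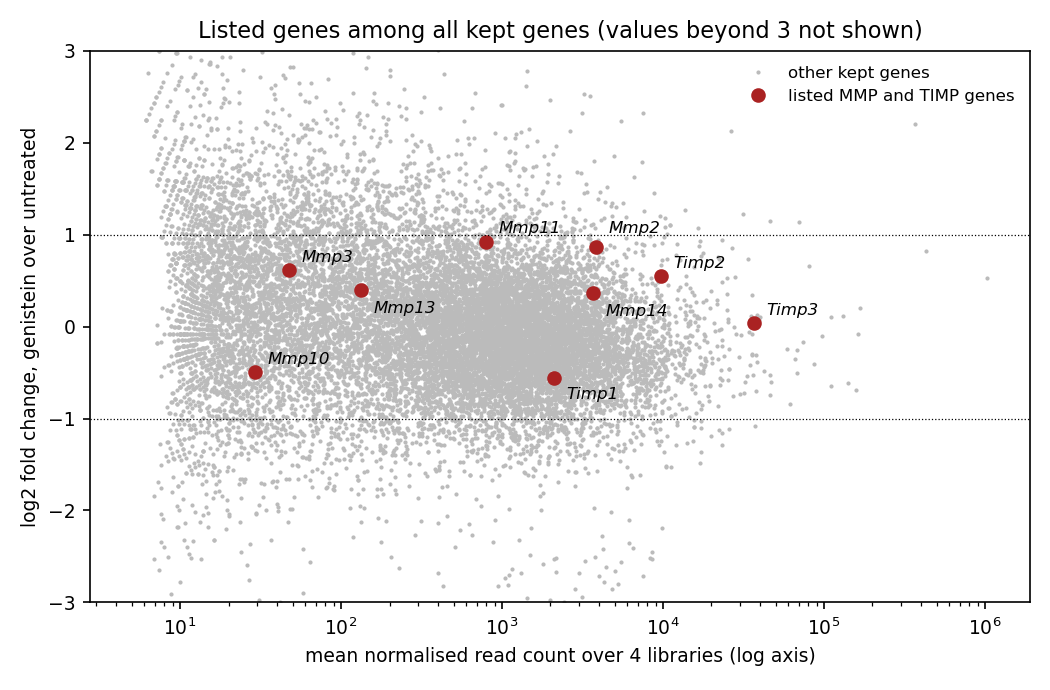
Log2 fold change with genistein against mean normalised read count (log axis) for all 16240 tested genes (grey) and the 9 tested MMP and TIMP genes (red, named), with dotted lines at 1 and -1. All 9 lie between the dotted lines, and 124 genes with an absolute log2 fold change over 3 lie outside the range drawn.

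Levels were then compared between genes, as normalised reads per kilobase of annotated exon. In untreated cells the order was Timp3 (4457 ± 51.0, SD, n = 2), Timp1 (2834 ± 124), Timp2 (2032 ± 29.5), Mmp2 (808 ± 5.00), Mmp14 (540 ± 2.60), Mmp11 (196 ± 7.38), Mmp13 (43.0 ± 5.85), Mmp3 (20.8 ± 1.97), Mmp10 (20.04 ± 2.09) and Mmp9 (2.33 ± 0.10). Each inhibitor was thus above each proteinase. Only the neighbours Mmp3 and Mmp10 overlapped between libraries. In genistein cells Timp2 (2965 ± 20.9) stood above Timp1 (1917 ± 59.4), and the other places were kept. Mmp3 (32.0 ± 2.49) and Mmp10 (14.1 ± 0.84) no longer overlapped there. The order depends on the length used for a gene. When the length of the coding transcript was taken instead, an alternative chosen after the values were seen, Mmp14 stood above Mmp2 in untreated cells (1239 against 885), and the pair was close in genistein cells (1596 against 1608).

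Ratios of 2 genes within a library do not depend on how libraries are scaled to each other, so they were used to describe the balance of proteinases and inhibitors. The 7 proteinases summed to 1644 and 1615 normalised reads per kilobase without genistein and to 2677 and 2604 with it. The 3 inhibitors summed to 9425 and 9219 without genistein and to 9377 and 9529 with it, ranges that overlap at these exon lengths. Whether the inhibitor sums overlap depends on the length used for each gene. The summed proteinases were accordingly 0.175 and 0.175 of the summed inhibitors in untreated cells and 0.286 and 0.273 in genistein cells, a 1.60-fold higher ratio. These sums weight each gene by its RNA and are no measure of activity.

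The composition of both sums differed between the groups. Timp3 held 47.7% and 48.0% of the inhibitor sum without genistein and 48.2% and 48.5% with it. The share of Timp1 was 31% and 29.8% in untreated cells and 20% and 20.6% in genistein cells. That of Timp2 was 21.3% and 22.3% before and 31.8% and 30.96% after, so the places of these inhibitors were exchanged. Among the proteinases, Mmp2 held 49.3% and 49.8% of the sum in untreated cells and 55.6% and 55.5% in genistein cells. The share of Mmp14 was lower with genistein, at 26.5% and 26.1% against 32.9% and 33.3%. That of Mmp11 was higher, at 13.9% and 14.3% against 12.2% and 11.8%. None of these shares of Mmp2, Mmp14 and Mmp11 overlapped between the groups. All shares rest on exon lengths and take other values with the length of the coding transcript.

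For the trio that acts in pro-MMP-2 activation, the ratios moved in different directions. Mmp2 over Timp2 was 0.403 and 0.392 without genistein and 0.500 and 0.490 with it. Mmp14 over Timp2 was 0.269 and 0.262 in the untreated libraries and lower, 0.238 and 0.231, in the genistein libraries. Mmp2 over Mmp14 was 1.498 and 1.495 in untreated cells and 2.10 and 2.12 in genistein cells. None of these ratios overlapped between groups. They are given as descriptions with no test. Their size, but not their fold between groups, depends on the length used for each gene. With the length of the coding transcript, Mmp14 stood above Mmp2 in untreated cells (1239 against 885).

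**Figure D4:**
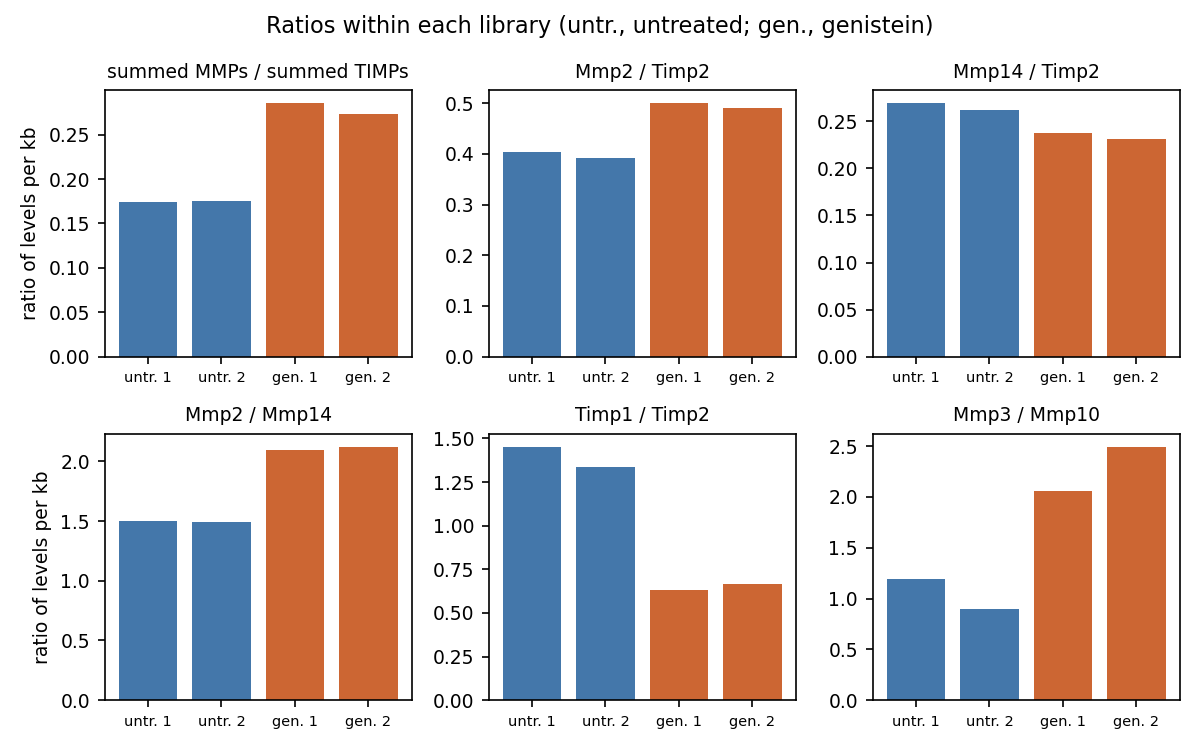
Ratios of normalised reads per kilobase of exon within each library, with 1 bar per library, blue for untreated and orange for genistein, and all axes from 0. Summed proteinases over summed inhibitors, Mmp2 over Timp2, Mmp2 over Mmp14 and Mmp3 over Mmp10 are higher in both genistein libraries, and Mmp14 over Timp2 and Timp1 over Timp2 (1.45 and 1.34 against 0.629 and 0.664) are lower.

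The rest of the MMP family was counted next. Of 16 other Mmp genes, 8 had enough reads, and 5 of these were higher and 1 was lower at an adjusted p under 0.05 (edgeR), with a median log2 fold change of 0.71. The largest rise was that of Mmp15, a membrane-anchored MMP, from 12.0 and 18.0 to 98.5 and 90.1 normalised reads (log2 fold change 2.65, standard error 0.23, adjusted p = 3.2e-08, edgeR). Mmp8, the collagenase named after neutrophils, went from 17.0 and 10.6 to 53.5 and 50.6 (1.90, adjusted p = 1.1e-05, edgeR). Both stood below 100 mean normalised reads. Mmp28, epilysin, rose from 66.9 and 64.6 to 161 and 143 (1.21, adjusted p = 1.4e-06, edgeR) and was the single gene of this list past all thresholds. Without either genistein library its mean fell below 100, while its log2 fold change was 1.12 and 1.29.

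Mmp27 and Mmp19 rose by 0.99 and 0.31 on the log2 scale (adjusted p = 0.0098 and 0.00013, edgeR). The call of Mmp27 was lost with DESeq2 (adjusted p = 0.13), without the second untreated library (0.062) and without the first genistein library (0.14). Mmp16, another membrane-anchored MMP, fell from 702 and 721 to 535 and 506 normalised reads (-0.45, adjusted p = 6.9e-06, edgeR). Mmp17 and Mmp24 had values of 0.12 and 0.43 that did not pass (adjusted p = 0.62 and 0.34, edgeR). Of the 8 genes not tested, Mmp1a, Mmp1b, Mmp7, Mmp20 and Mmp21 had no count in any library. Mmp12, Mmp23 and Mmp25 had at most 10 counts in a library.

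Among 6 other inhibitors of MMPs, 3 were tested and all 3 passed. Reck, a membrane-anchored inhibitor of MMP-2, MMP-9 and MMP-14, rose from 132 and 131 to 255 and 281 normalised reads (log2 fold change 1.03, standard error 0.11, adjusted p = 3.3e-07, edgeR). Thbs2, a matricellular protein that helps to clear MMP-2, rose from 88.9 and 68.8 to 157 and 180 (1.09, adjusted p = 6.7e-06, edgeR). Thbs1, its relative, fell from 42690 and 42840 to 29490 and 30070 (-0.52, adjusted p = 1.9e-08, edgeR). Reck and Thbs2 lay near the fold threshold. Without the second genistein library they were at 0.96 and 0.99, Thbs2 was at 0.91 without the second untreated library, and Reck was at 1.00 (just under the threshold) with no filter on low counts, all at an adjusted p under 0.05 (edgeR). Timp4 had at most 4 counts in a library, and A2m and Tfpi2 had none.

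The plasminogen system, whose protease plasmin activates several pro-MMPs, had 4 higher and 3 lower genes of 8 tested, with a median of 0.31. Plaur, the urokinase receptor, fell and passed all thresholds (log2 fold change -1.13, adjusted p = 2.3e-10, edgeR). Of 9 convertases and cell surface partners of MMPs, 4 were higher, 1 was lower and none passed all thresholds, while 4 had an adjusted p of 0.05 or more. Of 27 ADAM and ADAMTS proteinases, relatives of the MMPs, 19 were tested, with 11 higher and 3 lower and a median of 0.27. Adamts1 fell from 2701 and 2667 to 740 and 755 normalised reads (-1.84, adjusted p = 4.4e-15, edgeR), while Adamts6 and Adamts7 rose (1.28 and 1.26, adjusted p = 3.6e-10 and 1.9e-11, edgeR).

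Transcription factors known to act on MMP promoters were also split. Of 14 AP-1, ETS and RUNX genes, 8 were higher and 5 were lower, with a median of 0.30. The AP-1, ETS and RUNX families each held both higher and lower genes. Fos, an AP-1 subunit, rose from 206 and 219 to 447 and 410 normalised reads (log2 fold change 1.01, adjusted p = 3.4e-08, edgeR). Its log2 fold change was 0.96 without the first untreated library, 0.95 without the first genistein library and 0.99 with no filter, below the fold threshold. Etv4, an ETS factor, fell from 1621 and 1456 to 527 and 562 (-1.50, adjusted p = 4.6e-12, edgeR). Of 16 matrix substrates, 15 were tested, with 5 higher and 7 lower and a median of -0.09. The proteoglycan gene Vcan rose and passed all thresholds (log2 fold change 1.15, adjusted p = 1.5e-12, edgeR). The counts of these lists are descriptions beside the background of all genes given above, and no list was tested as a set.

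The libraries held 28591958 to 31464284 counts over genes and repeats. Of 10 fibroblast markers, Thy1 had no count in any library and Lum had at most 10, and of the 8 tested, Dcn was higher and 7 were lower with genistein. The summed fibroblast markers were 280800 and 283900 normalised reads in untreated cells and 239200 and 235000 in genistein cells. The 6 neutrophil markers summed to at most 1.06 in a library. The 7 macrophage markers summed to 321 and 304 in untreated cells and to 641 and 669 in genistein cells. Adgre1 was at 0 in all libraries and Ptprc at most at 1 count. Of the 4 macrophage markers tested, Csf1r and Cd68 were higher with genistein, Mrc1 was lower and Cd14 did not pass. The 6 epithelial markers summed to 1163 and 1130 in untreated cells and to 251 and 231 in genistein cells, with Epcam and Krt5 at 0 and Krt8, Krt14 and Krt18 lower. Endothelial markers summed to 26.0 and 33.9 and then to 99.4 and 99.2, and osteoblast and chondrocyte markers to 33.0 and 20.1 and then to 99.4 and 82.0. The endothelial sum was mostly Kdr, the 1 gene of that list tested. In the osteoblast and chondrocyte list, raw counts went from 1 and 0 to 29 and 22 for Bglap and to 48 and 41 for Bglap2. Sp7 went from 16 and 6 counts to 6 and 0 and was not tested, and Col2a1 did not pass (log2 fold change 0.08). The part of these shifts in the MMP and TIMP values was not tested.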

How the data were processed

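RNA was depleted of ribosomal RNA and sequenced as paired reads of 150 bases. The authors trimmed reads with Trim Galore, aligned them to mm10 with STAR, keeping reads with many alignments, and deposited raw counts per gene (Gencode M9) and per repeat from TEtranscripts. The strand option is not given in the sources used here. The table had 47937 genes, 1445 repeats and 1 entry naming neither, which held 0.00208% to 0.00314% of a library and was left out.

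Counts of genes and repeats were fitted in 1 table with edgeR 4.0.16 (R 4.3.3): filterByExpr kept 16240 genes and 1118 repeats, TMM factors (trimmed mean of M-values) scaled the libraries, and groups were compared with the quasi-likelihood test, adjusted by Benjamini-Hochberg over all kept entries. Standard errors were the log2 fold change over the square root of F. Coordinates, symbols (47310 genes matched) and exon lengths were from GENCODE M21 on GRCm38, the assembly of mm10. DESeq2 1.42.0 was an alternative. Between the 2 libraries of a group, the chi-square of the counts per degree of freedom was 5.48 (untreated) and 12.1 (genistein), where counting error alone gives about 1. Reads carry no molecular identifiers.

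Members, gene lists and tests were chosen with earlier results of these data known. All members, all tested genes of the 2 MMP family and inhibitor lists, and up to 3 higher and 3 lower genes past all thresholds of each further list were named. Some genes that this rule names are not reported here. The rule on genes most like the member with the largest change past all thresholds named none, since no member passed. The test was checked on simulated counts of 17025 entries, of which 200 were changed 4-fold, and 195 of these were called. Changes as small as those of the members, at most 1.90-fold, were not simulated.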

Additional observations from a re-analysis of the deposited data

How the results depend on the processing

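The number of MMP and TIMP genes past all thresholds was 0 in each direction under every alternative. With DESeq2, 4 members were higher and 1 lower at an adjusted p under 0.05, against 6 and 1 with edgeR. Of 90 values of single members under the alternatives, 84 kept their direction and side of the threshold, and 6, all of Mmp3 and Mmp13, fell short of it with their direction kept. Of 200 values of the 20 other named genes, 195 did so, 3 of Mmp27 fell short, and 2 without the second genistein library changed sign, Mmp17 (-0.069 to 0.30 when 1 library was left out) and Mmp24 (-0.023 to 0.91), neither past the test. Mmp28, Reck, Thbs2 and Fos lost their place past all thresholds in 9 of these values. The replicate block gave 6 higher and 1 lower member. Deviations of same-numbered libraries from their group means correlated at -0.03, which gives no sign of a pairing by number. With 2 libraries in each group, both pairs must give the same correlation, so this is 1 value. Of the convertases and cell surface partners, 2 were lower with no filter, against 1 before, and 1 to 2 when 1 library was left out, with 2 only without the second untreated library. The cause was not tested. The fold of the summed proteinase to inhibitor ratio, 1.60, was 1.515 with coding transcript lengths and 1.44 with no length correction, both chosen after seeing the data, and 1.56 to 1.63 when 1 library was left out. With an arm of 1 library, that library is assumed to vary like the other group. Scaling moved the median of all genes from -0.04 to 0.04. Depth limits Mmp9, Mmp3, Mmp10 and Mmp13 most.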
